A study of Homo sapiens with 9 samples.

Results

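The expression of genes in MCF10A cells carrying a constitutively active HER2 was compared with that in MCF10A cells carrying the empty vector, after YAP and TAZ had been depleted by siRNA in both. MCF10A is an established line of human mammary epithelial cells that does not form tumours. The comparison used 4 of the 9 RNA-seq libraries of the study, chosen by their labels. There were 2 libraries of HER2 cells, with YAP/TAZ siRNA reagents numbered 1 and 3, and 2 of empty-vector cells with the same reagents, all grown on plastic. The HER2 cells had been transduced with the retroviral construct pBABEpuro-HER2-CAV659E and the others with pBABEpuro. All cells were transfected with Lipofectamine RNAi-MAX, replated after 24 h and harvested 24 h later, and all were kept in medium with horse serum, insulin, EGF, hydrocortisone and cholera toxin. Ribosomal RNA was depleted before library preparation. The same lines with control siRNA on plastic gave 2 empty-vector libraries (A and B) and 1 HER2 library. The remaining 2 libraries, 1 of each line on a soft hydrogel of 0.5 kPa, entered the fit only.

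HER2, encoded by ERBB2, is a receptor tyrosine kinase that signals to the ERK and AKT pathways, mostly in dimers with the other ERBB receptors. YAP, encoded by YAP1, and TAZ, encoded by WWTR1, are transcriptional co-activators that bind DNA through TEAD factors. In epithelial cells they respond to cell shape, adhesion and the stiffness of the support, and drive genes of growth, of the cell cycle and of the cytoskeleton. MCF10A cells normally resemble basal mammary epithelium, with keratins of the basal layer, hemidesmosomes and E-cadherin junctions.

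The 4 libraries held 50073588 and 78945981 counts in empty-vector cells, with siRNA 1 and siRNA 3, and 67857398 and 59133388 in HER2 cells. Throughout, paired levels are given for siRNA 1 and then siRNA 3, in CPM (counts relative to the TMM-scaled library total). Within each line the 2 libraries correlated across genes at r = 0.95 in log2 CPM, against 0.896 between lines with siRNA 1 and 0.935 with siRNA 3. Nothing in the labels says that libraries came from separate cultures, and the 2 libraries of a line differ in siRNA reagent. The p-values therefore do not measure the spread between cultures. In the fit with a term for the reagent, the spread had 2 residual degrees of freedom. It came from empty-vector controls A and B, outside the comparison, and from the reagent difference that the lines did not share. Whether the cells of a line were 1 clone, and whether its 2 libraries share a transduction, is not given in the sources used here.

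The targeted genes were examined first. ERBB2 was at 73.5 and 95.5 CPM in empty-vector cells and at 442 and 361 CPM in HER2 cells (log2 fold change 2.25 ± 0.19, adjusted p = 0.00318). The groups did not overlap, and the counts do not separate the transgene from the cells' own ERBB2. YAP1 was at 14.3 and 14.3 CPM in empty-vector cells and at 9.75 and 18.9 CPM in HER2 cells, against 83.9 and 85.1 CPM in empty-vector controls and 115 CPM in the HER2 control. The YAP1 that remained was 16.9% and 16.9% of the control level in empty-vector cells and 8.49% and 16.5% in HER2 cells, and the residual levels of the lines overlapped (log2 fold change -0.07 ± 0.24, adjusted p = 0.85). WWTR1 was at 14 and 21.6 CPM in empty-vector cells and at 29 and 48.2 CPM in HER2 cells, which left 18.2% and 28.0% of the control level in empty-vector cells and 17.1% and 28.4% in HER2 cells. HER2 cells therefore held more WWTR1 RNA after siRNA than empty-vector cells (log2 fold change 1.10 ± 0.11, adjusted p = 0.00449), from a higher control level of 169.6 CPM against 77.4 and 76.9 CPM. Without a term for the siRNA reagent the adjusted p for WWTR1 was 0.101. Whether residual TAZ bears on any difference below was not tested.

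Cell type markers were read in the same libraries. The summed level of 5 basal mammary markers was 7230 and 3390 CPM in empty-vector cells and 1050 and 521 CPM in HER2 cells. The summed level of 5 general epithelial markers was 1470 and 425 CPM in empty-vector cells and 297 and 217 CPM in HER2 cells. In HER2 cells KRT14, TP63, CDH1 and KRT19 were at or below 1.7 CPM. KRT19 was also low in empty-vector cells, at 2.21 and 0.185 CPM. The labelled epithelial identity of HER2 cells thus rested on the rest of these markers, KRT5, LAMB3, ITGB4, KRT8, KRT18 and EPCAM. Of 6 leukocyte markers 3 were at 0 in all 4 libraries, PTPRC and CD3E among them. CD14 was at 25.2 and 8.67 CPM in empty-vector cells and at 19.98 and 8.62 CPM in HER2 cells, and ITGAM reached 4.71 CPM in empty-vector cells with siRNA 1. Of 8 fibroblast markers, COL1A2 and COL3A1 stayed at or under 0.106 CPM in these libraries, while FAP, DCN and COL1A1 were present in both lines. The summed fibroblast markers were 247 and 406 CPM in empty-vector cells and 39.6 and 132 CPM in HER2 cells. In bulk RNA, fewer cells of a type and less RNA per cell cannot be told apart.

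HER2 cells differed from empty-vector cells in a large share of genes. Counts were fitted with edgeR's quasi-likelihood model over all 9 libraries, with 1 term for siRNA 3 against siRNA 1 shared by the lines, with Benjamini-Hochberg adjustment of the p-values over 16117 genes. Of these, 2477 (15.4%) were higher and 2816 (17.5%) lower in HER2 cells at an adjusted p under 0.05. The fit without the siRNA term, in which the difference between reagents counts as error, gave 276 higher (1.71%) and 666 lower (4.13%), and all 942 were among the calls of the first fit with the same sign. The call count was moved by single libraries: it was 2394 without empty-vector control A and 2383 without control B. Without 1 of the 4 siRNA libraries it was 9281 to 10539, because the spread then rests on controls A and B alone. In what follows, "passed" means the fit with the term, and the stricter count without the term is given beside it. A gene for which the fit without the term is not mentioned may not have passed in it. Errors are the absolute log2 fold change divided by the square root of the F statistic of its test. They approximate a standard error and can be too small where a group has few counts. Each list count is to be read against the shares of all genes tested, 15.4% higher and 17.5% lower. A count near these shares is no result about its list. List counts are also given without control A or B where they differ by over 1.5 times.

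The reagents gave 2 pairs of libraries, which come from the same 2 lines. Across genes the HER2 effect with siRNA 1 correlated with that with siRNA 3 at r = 0.68, and 73.7% of genes had the same sign. In both pairs, 869 genes were over 2-fold higher in HER2 cells and 2076 were over 2-fold lower. A smaller number went opposite ways by over 2-fold, 113 higher only with siRNA 1 and 165 higher only with siRNA 3. THBD, which encodes thrombomodulin, and EPGN, which encodes the EGF receptor ligand epigen, were picked from these after their values were seen. THBD was at 91.8 and 17.4 CPM in empty-vector cells and at 29.5 and 135 CPM in HER2 cells, a log2 fold change of -1.63 with siRNA 1 and 2.96 with siRNA 3. EPGN was at 111 and 15.7 CPM in empty-vector cells and at 41.7 and 55.3 CPM in HER2 cells, a log2 fold change of -1.41 with siRNA 1 and 1.82 with siRNA 3. For both genes the higher empty-vector library was that with siRNA 1.

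**Figure D1:**
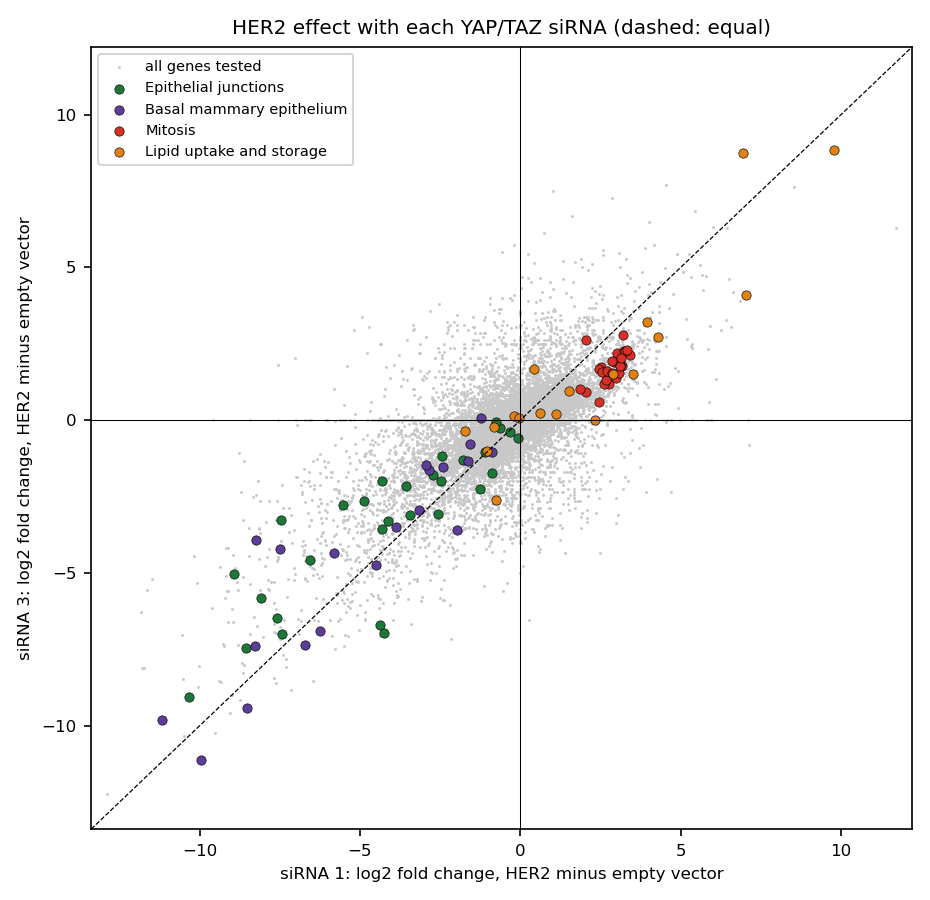
Each point is 1 gene, with the log2 fold change of HER2 cells over empty-vector cells with siRNA 1 on the x axis and with siRNA 3 on the y axis. Grey points are the 16117 genes tested and coloured points are members of 4 gene lists. Junction and basal genes lie in the lower left, and mitosis genes lie in the upper right mostly under the dashed line of equality.

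The genes with the largest differences were named by a rule. It took the 12 largest in each direction among genes that passed in both fits, had an average log2 CPM of 2 or more over the 9 libraries and did not overlap between groups, out of 245 that met it as higher and 391 as lower. The 12 lower genes were SERPINB2, KRT6B, KRT17, CDH1, KLK7, LAD1, KRT14, CD24, FAT2, ESRP1, FXYD3 and COL17A1. The 12 higher genes were ALOX5AP, KCNQ3, SRGN, PTX3, TLR4, PPARG, FAM111B, CLGN, ZNF367, CCNE2, DEPDC1 and NR2F1. Every one of the 24 passed with the same sign under each alternative that was run. SERPINB2, an inhibitor of plasminogen activators, was at 178 and 217 CPM in empty-vector cells and at 0.0908 and 0.136 CPM in HER2 cells (log2 fold change -10.75 ± 0.18, adjusted p = 0.000294). LAD1, an anchoring-filament protein of the basement membrane, was at 242 and 90.9 CPM in empty-vector cells and at 0.424 and 0.0852 CPM in HER2 cells (log2 fold change -9.39 ± 0.25, adjusted p = 0.000504). FAT2, an atypical cadherin of squamous epithelium, was at 370.0 and 120.4 CPM in empty-vector cells and at 0.575 and 0.681 CPM in HER2 cells (log2 fold change -8.42 ± 0.51, adjusted p = 0.00151). In each of these genes the HER2 libraries lay far below both empty-vector libraries.

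**Figure D2:**
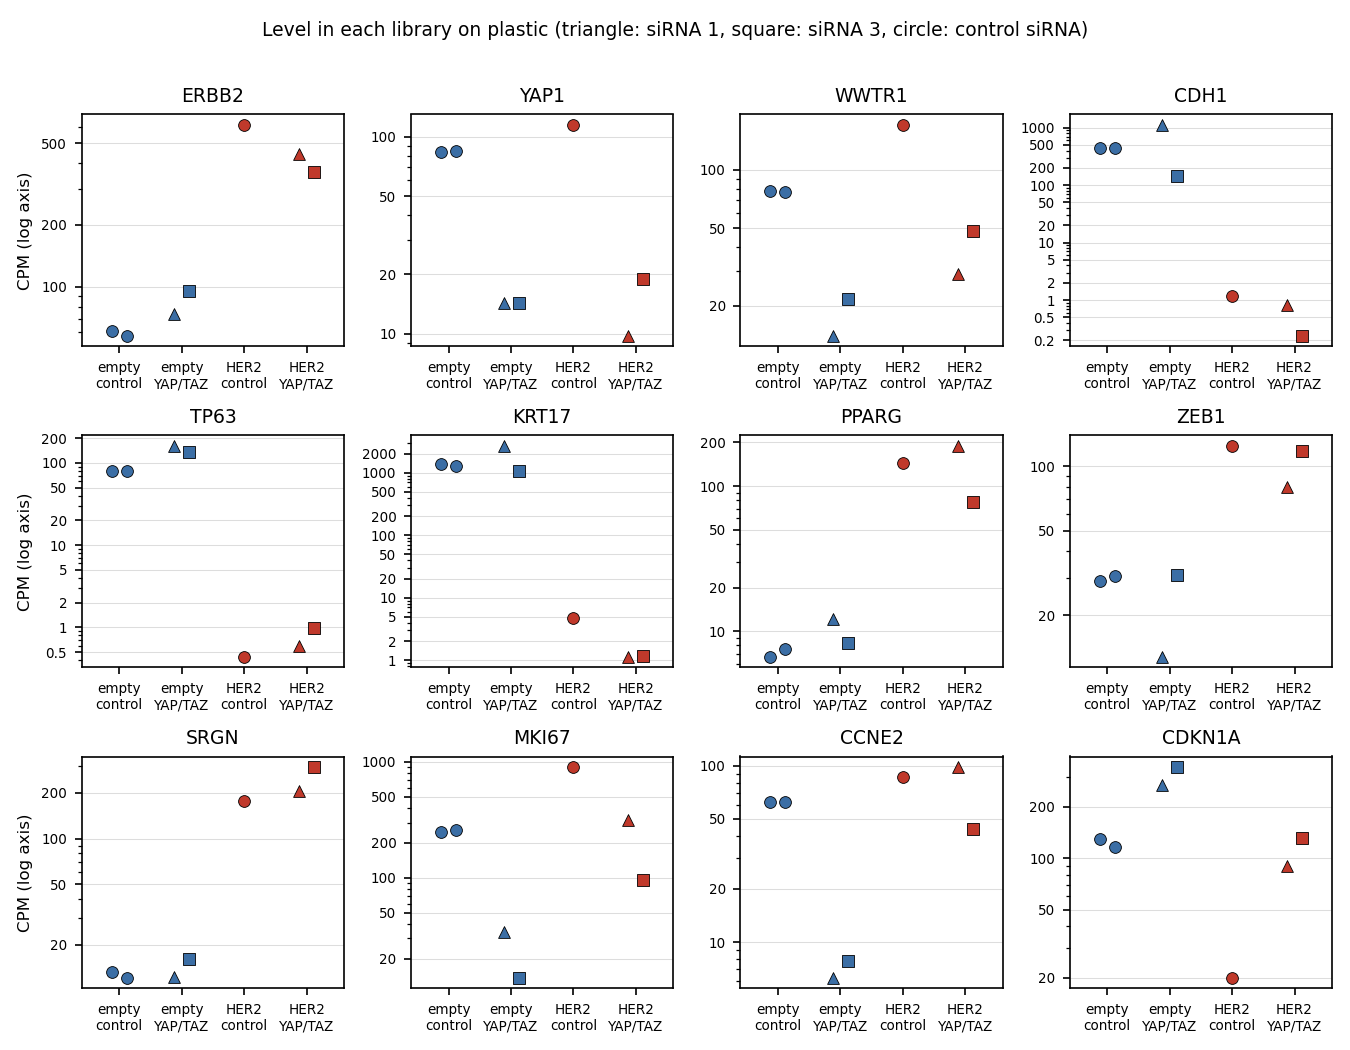
CPM on a log axis for 12 genes in the 7 libraries on plastic, blue for empty vector and red for HER2. Circles are control siRNA, triangles siRNA 1 and squares siRNA 3. CDH1, TP63 and KRT17 are near or below 5 CPM in every HER2 library shown, and MKI67 and CCNE2 are lowest in empty-vector cells with YAP/TAZ siRNA.

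Genes of epithelial junctions were lower in HER2 cells almost without exception. Of 29 tested, 27 passed as lower and 0 as higher, and 15 passed without the siRNA term. Their median log2 fold change was -3.27, against -0.06 over all genes tested. CDH1, which encodes E-cadherin, was at 1111 and 144 CPM in empty-vector cells and at 0.832 and 0.238 CPM in HER2 cells (log2 fold change -10.00 ± 0.32, adjusted p = 0.000504). CDH3, the P-cadherin of basal cells, was at 1113 and 527 CPM in empty-vector cells and at 5.75 and 5.84 CPM in HER2 cells (log2 fold change -7.05 ± 0.34, adjusted p = 0.000808). CDH1 was close to absent in HER2 cells with either reagent, while CDH3 stayed detectable. The catenin CTNNB1, which joins cadherins to the cytoskeleton and also acts in Wnt signalling, was at 616 and 994 CPM in empty-vector cells and at 581 and 664 CPM in HER2 cells and did not pass (log2 fold change -0.33 ± 0.15, adjusted p = 0.142).

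All 10 desmosome genes were lower, 6 of them also without the siRNA term. The desmosomal cadherin DSG3 was at 1155 and 252 CPM in empty-vector cells and at 4.25 and 4.39 CPM in HER2 cells (log2 fold change -6.97 ± 0.65, adjusted p = 0.00422). DSP, which encodes the plaque protein desmoplakin that anchors keratin filaments, was at 2478 and 1064 CPM in empty-vector cells and at 211 and 239.6 CPM in HER2 cells (log2 fold change -2.85 ± 0.35, adjusted p = 0.00713). The groups did not overlap in either gene, and the remaining DSP was still abundant. Plakoglobin, JUP, which serves desmosomes and adherens junctions alike, was at 492 and 201 CPM in empty-vector cells and at 10.7 and 29.7 CPM in HER2 cells (log2 fold change -4.13 ± 0.73, adjusted p = 0.0155). PKP1, a plakophilin, had 0 counts in both HER2 libraries against 5.76 and 0.284 CPM, at least 5.56-fold lower at a floor of 3 counts per library. The empty-vector library with siRNA 3 also held little PKP1.

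Of 13 tight junction genes 12 were lower, 6 of them without the term. CRB3, a polarity protein of the apical membrane, had 0 counts in both HER2 libraries against 12.4 and 5.74 CPM in empty-vector cells, at least 112-fold lower at the same floor. The claudin CLDN7 was at 159 and 36.2 CPM in empty-vector cells and at 1.65 and 1.48 CPM in HER2 cells (log2 fold change -5.63 ± 0.53, adjusted p = 0.00427). CLDN4 was at 67.1 and 8.87 CPM in empty-vector cells and at 0.106 and 0.238 CPM in HER2 cells (log2 fold change -7.38 ± 0.92, adjusted p = 0.00725). Occludin, OCLN, was at 16.4 and 6.39 CPM in empty-vector cells and at 0.802 and 0.511 CPM in HER2 cells (log2 fold change -4.02 ± 0.25, adjusted p = 0.00155). TJP1, the scaffold ZO-1, was at 262 and 117 CPM in empty-vector cells and at 156 and 113 CPM in HER2 cells and did not pass (log2 fold change -0.40 ± 0.18, adjusted p = 0.15).

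The promoters of 2 of these genes are shown for the E-box CACCTG, which the ZEB repressors are known to bind. ZEB1 and ZEB2 RNA passed as higher in HER2 cells only in the fit with the siRNA term, as given further on. The sequences are from RefSeq on GRCh38.p14 and cover the 250 bases before the start of the gene, 5′ to 3′ on the gene's strand. Capitals mark CACCTG on either strand, which on the other strand reads CAGGTG.
CRB3 (chr19:6464021-6464270, + strand): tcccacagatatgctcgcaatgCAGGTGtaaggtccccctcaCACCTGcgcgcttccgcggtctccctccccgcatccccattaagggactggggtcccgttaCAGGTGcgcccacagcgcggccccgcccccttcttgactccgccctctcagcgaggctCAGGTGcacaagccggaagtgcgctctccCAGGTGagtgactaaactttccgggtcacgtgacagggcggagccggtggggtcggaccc
CLDN7 (chr17:7262479-7262728, - strand): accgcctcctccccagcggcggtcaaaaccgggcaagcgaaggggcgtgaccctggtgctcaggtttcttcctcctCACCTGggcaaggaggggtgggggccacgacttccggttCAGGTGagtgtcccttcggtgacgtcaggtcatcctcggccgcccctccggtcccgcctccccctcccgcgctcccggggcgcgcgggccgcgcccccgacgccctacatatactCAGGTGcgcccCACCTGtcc
CRB3 held 5 matches and CLDN7 held 4. Both genes were picked by name, and for each the window with the most matches was printed. Of the 27 junction genes that passed, 17 had an entry, with 25 windows, of which 9 (36%), from 8 genes, held the motif. CDH1 had no entry. Over all 35116 windows of that length the share was 17.5%. A match describes the letters of the window and shows no binding. Whether the ZEB factors bear on these genes was not tested.

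The factors that maintain epithelial identity were lower too. Of 13 tested, 11 were lower, 6 of them without the siRNA term, and 0 were higher, with a median of -4.13. TP63, the p63 factor of basal epithelia, was at 160.3 and 137 CPM in empty-vector cells and at 0.59 and 0.971 CPM in HER2 cells (log2 fold change -7.59 ± 0.28, adjusted p = 0.000504). The HER2 level of TP63 was a small remnant with either reagent. ELF3, an epithelial ETS factor, was at 216 and 12.6 CPM in empty-vector cells and at 0.303 and 0 CPM in HER2 cells (log2 fold change -9.58 ± 0.36, adjusted p = 0.000504). GRHL1, a grainyhead-like factor of the epidermal barrier, was at 91.2 and 10.4 CPM in empty-vector cells and at 3.87 and 0.869 CPM in HER2 cells (log2 fold change -4.13 ± 0.30, adjusted p = 0.00239). ELF3 and GRHL1 also differed strongly between the reagents in empty-vector cells, being higher with siRNA 1. GRHL1 missed the threshold without the term (adjusted p = 0.0861). The splicing regulator ESRP1, which directs epithelial exons, was at 123 and 70.4 CPM in empty-vector cells and at 0.167 and 0.409 CPM in HER2 cells (log2 fold change -8.36 ± 0.49, adjusted p = 0.00142). Its paralog ESRP2 was at 60.3 and 8.51 CPM in empty-vector cells and at 19.2 and 1.67 CPM in HER2 cells, where the groups overlapped (log2 fold change -1.97 ± 0.20, adjusted p = 0.00493), and missed the threshold without the term (adjusted p = 0.415).

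Basal mammary genes showed the same direction. Of 20 tested, 19 were lower and 0 higher, 13 were lower without the term, and the median was -4.59. KRT17 was at 2676 and 1070.3 CPM in empty-vector cells and at 1.14 and 1.16 CPM in HER2 cells (log2 fold change -10.54 ± 0.43, adjusted p = 0.000558). KRT14, the keratin that pairs with KRT5 in basal cells, was at 636 and 80.1 CPM in empty-vector cells and at 1.7 and 0.0852 CPM in HER2 cells (log2 fold change -8.83 ± 0.30, adjusted p = 0.000504). KRT5 itself was at 4651 and 659 CPM in empty-vector cells and at 646 and 213 CPM in HER2 cells (log2 fold change -2.24 ± 0.30, adjusted p = 0.00874). It missed the threshold without the term (adjusted p = 0.152). KRT5 thus kept a high level in HER2 cells while KRT14 and KRT17 were under 2 CPM. Reads of near-identical keratins such as KRT6A, KRT6B, KRT14, KRT16 and KRT17 can be split between copies, so their separate levels are uncertain. KRT6B, a keratin of activated epidermis, was at 227 and 73.8 CPM in empty-vector cells and at 0.197 and 0 CPM in HER2 cells and KRT6A was at 2714 and 1129.7 CPM in empty-vector cells and at 508 and 393 CPM in HER2 cells.

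Hemidesmosome genes, which attach basal cells to laminin, made up 8 of the list, and 7 were lower. The hemidesmosomal collagen COL17A1 was at 2056 and 1244 CPM in empty-vector cells and at 6.66 and 7.43 CPM in HER2 cells (log2 fold change -7.83 ± 0.29, adjusted p = 0.000504). The laminin-332 chain LAMA3 was at 2906 and 4619 CPM in empty-vector cells and at 28 and 28.1 CPM in HER2 cells (log2 fold change -7.03 ± 0.23, adjusted p = 0.000504). The chain LAMB3 fell less and was at 1298 and 2158 CPM in empty-vector cells and at 334 and 178 CPM in HER2 cells (log2 fold change -2.78 ± 0.41, adjusted p = 0.0107). The integrin ITGB4 was at 484 and 357 CPM in empty-vector cells and at 63.7 and 128 CPM in HER2 cells (log2 fold change -2.20 ± 0.36, adjusted p = 0.0129). Its partner ITGA6 was at 2104 and 1289 CPM in empty-vector cells and at 1147 and 624 CPM in HER2 cells (log2 fold change -0.96 ± 0.1, adjusted p = 0.00505), where only the fit with the term passed. SFN, which encodes the 14-3-3 sigma protein of stratified epithelia, was at 555 and 685 CPM in empty-vector cells and at 38 and 60.1 CPM in HER2 cells (log2 fold change -3.69 ± 0.14, adjusted p = 0.000504).

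Luminal genes were mixed. Of 21 tested, 8 were lower, 3 of them without the term, and 1 was higher, and 12 did not pass. Without control A or B 7 were lower and 0 higher. CD24, a surface glycoprotein of luminal cells, was at 1150.2 and 305 CPM in empty-vector cells and at 0.742 and 2.32 CPM in HER2 cells (log2 fold change -8.68 ± 1.02, adjusted p = 0.00649). ALDH1A3, an aldehyde dehydrogenase of luminal progenitors, was at 641 and 418 CPM in empty-vector cells and at 7.19 and 17.7 CPM in HER2 cells (log2 fold change -5.51 ± 0.53, adjusted p = 0.00442). The keratin KRT8 of simple epithelia was at 110.1 and 113 CPM in empty-vector cells and at 123 and 103 CPM in HER2 cells and did not pass (log2 fold change 0.02 ± 0.12, adjusted p = 0.916). EPCAM, an epithelial adhesion molecule counted with the adherens junctions, was at 133 and 45.3 CPM in empty-vector cells and at 24.7 and 20.3 CPM in HER2 cells (log2 fold change -1.80 ± 0.32, adjusted p = 0.0155). EPCAM missed the threshold without the term (adjusted p = 0.075).

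The genes of the cornified envelope, made by keratinocytes at the end of differentiation, had the lowest median of the lists. Of 29 tested, 25 were lower, 9 of them without the term, and 0 were higher. The fitted median was -8.64, and it was -6.15 when the 8 genes with 0 counts in a group were set at the floor of 3 counts per library. IVL, involucrin, had 0 counts in both HER2 libraries against 113 and 9.05 CPM, at least 177-fold lower. The cross-linking enzyme TGM1 was at 314 and 3.99 CPM in empty-vector cells and at 0.515 and 0.187 CPM in HER2 cells (log2 fold change -8.19 ± 1.14, adjusted p = 0.00918). The kallikrein KLK7, a protease of desquamation, was at 255 and 24.9 CPM in empty-vector cells and at 0.348 and 0.0341 CPM in HER2 cells (log2 fold change -9.50 ± 0.28, adjusted p = 0.000504). S100A8, a calgranulin of stressed keratinocytes, was at 1239 and 11.1 CPM in empty-vector cells and at 90.9 and 0.664 CPM in HER2 cells (log2 fold change -3.88 ± 0.13, adjusted p = 0.000504). The summed level of the 29 genes was 4354 CPM with siRNA 1 and 169 CPM with siRNA 3 in empty-vector cells, against 248 and 214 CPM in controls A and B. The high level was therefore found in 1 empty-vector library. In S100A8 the empty-vector library with siRNA 3 lay below the HER2 library with siRNA 1. TGM1 and S100A8 did not pass without the term, at adjusted p = 0.072 for TGM1 and 0.367 for S100A8.

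**Figure D3:**
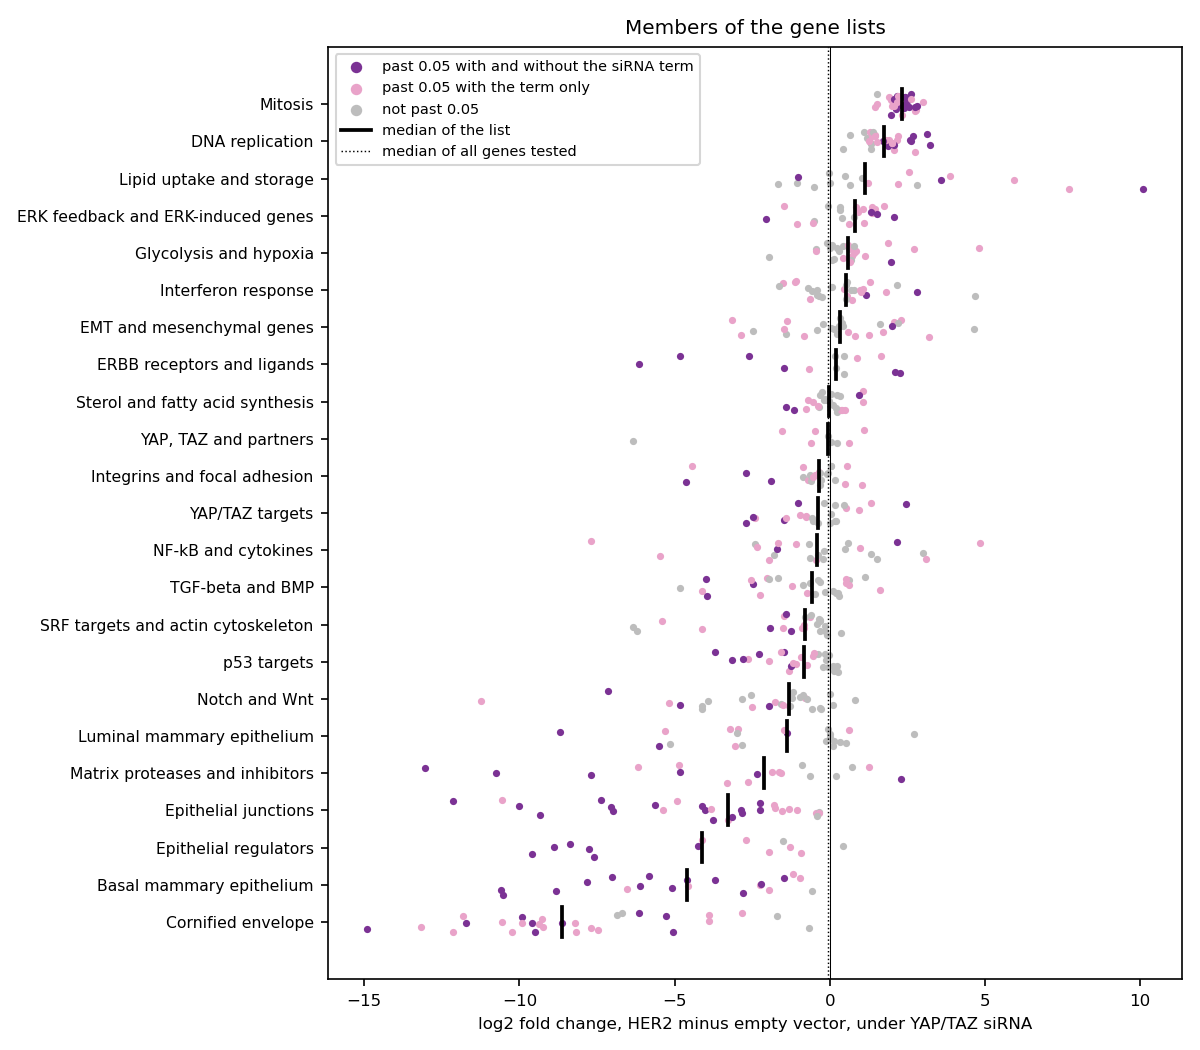
Each point is a tested member of a gene list and its x position is the log2 fold change of HER2 over empty-vector cells under YAP/TAZ siRNA. Purple members passed with and without the siRNA term, pink members only with it and grey members did not pass. Black bars are list medians, from -8.64 for the cornified envelope to 2.32 for mitosis.

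Genes of epithelial-mesenchymal transition did not move as a block. Of 27 tested, 8 were higher and 5 lower, against 15.4% and 17.5% of all genes tested. Without the siRNA term 1 was higher and 0 were lower, and without control A or B 5 were higher and 5 lower. Among the transcription factors of the transition, ZEB1 was at 12.8 and 30.8 CPM in empty-vector cells and at 80.4 and 119 CPM in HER2 cells (log2 fold change 2.29 ± 0.20, adjusted p = 0.00364). ZEB2 was at 18.6 and 33.2 CPM in empty-vector cells and at 73.3 and 148 CPM in HER2 cells (log2 fold change 2.07 ± 0.13, adjusted p = 0.00155). Neither passed without the term, at adjusted p = 0.0519 for ZEB1 and 0.0526 for ZEB2, although the groups did not overlap. SNAI2, which encodes Slug, was at 126 and 376 CPM in empty-vector cells and at 21.8 and 305 CPM in HER2 cells and did not pass (log2 fold change -1.41 ± 0.54, adjusted p = 0.103). S100A4, a calcium-binding protein of motile cells, was at 28.2 and 43.7 CPM in empty-vector cells and at 133 and 148 CPM in HER2 cells and passed in both fits (log2 fold change 2.0 ± 0.16, adjusted p = 0.00286). Vimentin, VIM, was at 937 and 1974 CPM in empty-vector cells and at 1612 and 2638 CPM in HER2 cells, and N-cadherin, CDH2, was at 99.8 and 215 CPM in empty-vector cells and at 207 and 325 CPM in HER2 cells. For VIM the log2 fold change was 0.60 ± 0.12, adjusted p = 0.0223, and for CDH2 it was 0.83 ± 0.14, adjusted p = 0.0148. In both genes the empty-vector library with siRNA 3 lay above the HER2 library with siRNA 1. Fibronectin, FN1, was lower, at 2526 and 7285 CPM in empty-vector cells and at 917 and 2938 CPM in HER2 cells (log2 fold change -1.39 ± 0.098, adjusted p = 0.00221). In FN1 too the groups overlapped, and it missed the threshold without the term (adjusted p = 0.258). TNC, the matrix glycoprotein tenascin-C, was at 269 and 641 CPM in empty-vector cells and at 112 and 196 CPM in HER2 cells (log2 fold change -1.49 ± 0.14, adjusted p = 0.00427). COL6A1, a chain of collagen VI, was higher, at 17.3 and 43 CPM in empty-vector cells and at 95.8 and 85 CPM in HER2 cells (log2 fold change 1.72 ± 0.37, adjusted p = 0.0246).

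Proteases and inhibitors of the matrix were mostly lower. Of 18 tested, 12 were lower, 5 without the term, and 2 were higher, 1 without it, with a median of -2.10. Without control A or B 11 were lower and 1 higher. The gelatinase MMP9 was at 249 and 733 CPM in empty-vector cells and at 0 and 0.119 CPM in HER2 cells (log2 fold change -13.05 ± 0.41, adjusted p = 0.000504). MMP28, a matrix metalloproteinase of keratinocytes, was at 176 and 45.5 CPM in empty-vector cells and at 1.21 and 0.0681 CPM in HER2 cells (log2 fold change -7.70 ± 0.45, adjusted p = 0.00142). TIMP3, an inhibitor of metalloproteinases held in the matrix, was at 151 and 134 CPM in empty-vector cells and at 6.13 and 4.17 CPM in HER2 cells (log2 fold change -4.81 ± 0.16, adjusted p = 0.000504). MMP9 RNA was thus nearly absent from HER2 cells, while it was abundant in empty-vector cells. The 2 higher genes were MMP2 and the protease inhibitor SERPINE2. MMP2, a gelatinase of mesenchymal cells, was at 14.5 and 10.6 CPM in empty-vector cells and at 21.7 and 40.4 CPM in HER2 cells (log2 fold change 1.26 ± 0.35, adjusted p = 0.0467). SERPINE2 was at 102 and 139 CPM in empty-vector cells and at 613 and 568 CPM in HER2 cells (log2 fold change 2.31 ± 0.17, adjusted p = 0.00226).

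Among integrins and focal adhesion genes, 9 of 23 were lower and 3 higher, and without the term 3 were lower and 0 higher. Without control A or B 6 were lower and 1 higher. ITGB6, the beta chain of an epithelial integrin that activates TGF-beta, was at 1091 and 1316 CPM in empty-vector cells and at 40.6 and 58.7 CPM in HER2 cells (log2 fold change -4.62 ± 0.13, adjusted p = 0.000504). ITGB8, whose integrin also activates TGF-beta, was at 476 and 389 CPM in empty-vector cells and at 72.1 and 60 CPM in HER2 cells (log2 fold change -2.71 ± 0.10, adjusted p = 0.000505). ITGAV, the alpha chain that partners both, was at 1008 and 1221 CPM in empty-vector cells and at 607 and 609 CPM in HER2 cells (log2 fold change -0.87 ± 0.11, adjusted p = 0.00785). The kindlins, which activate integrins, went opposite ways. The epithelial kindlin FERMT1 was at 236 and 453 CPM in empty-vector cells and at 79.4 and 96.2 CPM in HER2 cells (log2 fold change -1.90 ± 0.18, adjusted p = 0.00441). The broadly expressed FERMT2 was at 93.6 and 143 CPM in empty-vector cells and at 233 and 245 CPM in HER2 cells (log2 fold change 1.05 ± 0.16, adjusted p = 0.0108). Of 24 SRF targets and genes of the actin cytoskeleton 11 were lower, 3 without the term, and 0 were higher. TAGLN, an actin-binding protein of smooth muscle, was at 84.9 and 192 CPM in empty-vector cells and at 0.757 and 9.62 CPM in HER2 cells (log2 fold change -5.39 ± 0.64, adjusted p = 0.00662). CNN2, a calponin, was at 183 and 205 CPM in empty-vector cells and at 45.1 and 57.6 CPM in HER2 cells (log2 fold change -1.92 ± 0.11, adjusted p = 0.00142).

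With YAP1 and WWTR1 RNA reduced in both lines, the known targets of YAP and TAZ were compared between them. Of 23 tested, 9 were lower and 4 higher in HER2 cells, with a median of -0.37. Without the siRNA term 4 were lower and 1 higher and the median was -0.19, and without control A or B 8 were lower and 2 higher. The classical targets CTGF and CYR61 did not pass. CTGF, a matricellular protein, was at 3.67 and 9.28 CPM in empty-vector cells and at 4.46 and 9.64 CPM in HER2 cells (log2 fold change 0.16 ± 0.15, adjusted p = 0.426). CYR61, of the same family, was at 16.5 and 27.9 CPM in empty-vector cells and at 12.7 and 21.6 CPM in HER2 cells (log2 fold change -0.37 ± 0.11, adjusted p = 0.0576). With control siRNA CTGF was higher in both lines, at 44.4 and 43.9 CPM in empty-vector cells and at 21.9 CPM in HER2 cells. The target TGFB2, a ligand, was at 7.05 and 7.89 CPM in empty-vector cells and at 1.18 and 1.52 CPM in HER2 cells (log2 fold change -2.48 ± 0.18, adjusted p = 0.00229). AJUBA, a LIM protein that restrains the LATS kinases, was at 43.9 and 27 CPM in empty-vector cells and at 11.6 and 13.4 CPM in HER2 cells (log2 fold change -1.46 ± 0.23, adjusted p = 0.0126). NUAK2, a kinase, was at 7.15 and 4.48 CPM in empty-vector cells and at 1.14 and 0.681 CPM in HER2 cells (log2 fold change -2.68 ± 0.26, adjusted p = 0.00442). These targets were lower in HER2 cells without overlap. DLC1, a GTPase-activating protein, was the largest rise, at 5.37 and 6.39 CPM in empty-vector cells and at 41.4 and 25.5 CPM in HER2 cells (log2 fold change 2.47 ± 0.26, adjusted p = 0.00502). The HER2 effect on several targets was nearer to 0 with YAP/TAZ siRNA than with control siRNA, but by edgeR 0 of these differences passed adjustment. FJX1 instead changed sign, with a log2 fold change of -0.74 with control siRNA and 1.32 with YAP/TAZ siRNA. By edgeR 8 of the 23 were more positive at an unadjusted p under 0.05, against 9.52% of all genes tested. DESeq2 called 6 as more positive, namely CTGF, ANKRD1, F3, FJX1, IGFBP3 and TGFB2, against 3.64% of the genes to which it gave an adjusted p. ANKRD1, for example, had a log2 fold change of -6.25 ± 0.93 with control siRNA and -2.40 ± 0.59, adjusted p = 0.036 with YAP/TAZ siRNA, and the unadjusted p of the difference was 0.0158. For F3, tissue factor, the corresponding values were -1.89 ± 0.14 and -0.77, with an unadjusted p of 0.00118. Of the 4 TEAD factors, 2 were lower and 1 higher with the term, and 0 passed without it. Without control A or B 1 was lower and 0 higher. TEAD3 was lower, at 20.8 and 15.5 CPM in empty-vector cells and at 4.48 and 8.33 CPM in HER2 cells (log2 fold change -1.55 ± 0.34, adjusted p = 0.0271). TEAD2 was also lower (log2 fold change -0.49 ± 0.14, adjusted p = 0.047), although the groups overlapped, and TEAD4 was higher, at 7.13 and 5.27 CPM in empty-vector cells and at 12.3 and 7.38 CPM in HER2 cells (log2 fold change 0.64 ± 0.18, adjusted p = 0.0494).

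The ERBB family changed beyond ERBB2 itself. Of 13 receptors and ligands tested, 4 were higher and 5 lower, and 2 and 4 passed without the term or without either control. The receptor ERBB3, a partner of HER2, was at 104 and 18.2 CPM in empty-vector cells and at 0.999 and 0.443 CPM in HER2 cells (log2 fold change -6.14 ± 0.36, adjusted p = 0.00142). EGFR was at 156 and 106 CPM in empty-vector cells and at 50.6 and 42.2 CPM in HER2 cells (log2 fold change -1.47 ± 0.12, adjusted p = 0.0033). Thus HER2 cells held less RNA of both partner receptors. The ligand HBEGF was at 230.5 and 149.6 CPM in empty-vector cells and at 27.7 and 33.2 CPM in HER2 cells (log2 fold change -2.61 ± 0.24, adjusted p = 0.00398). NRG1, a ligand of ERBB3, was at 1.35 and 4.16 CPM in empty-vector cells and at 0.0605 and 0.119 CPM in HER2 cells (log2 fold change -4.82 ± 0.48, adjusted p = 0.0046). EREG, epiregulin, was higher, at 97.2 and 98.7 CPM in empty-vector cells and at 655 and 270.0 CPM in HER2 cells (log2 fold change 2.10 ± 0.32, adjusted p = 0.0113).

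Genes that ERK signalling induces, many of which feed back on it, were higher on balance. Of 22 tested, 12 were higher and 4 lower, with a median of 0.82. Without the term 3 were higher and 1 lower, and without control A or B 8 and 2. SPRED1, an inhibitor of RAS signalling, was at 119 and 137 CPM in empty-vector cells and at 356 and 284 CPM in HER2 cells (log2 fold change 1.32 ± 0.16, adjusted p = 0.00691). FOSL1, the AP-1 factor FRA1, was at 2.05 and 2.59 CPM in empty-vector cells and at 10 and 9.5 CPM in HER2 cells (log2 fold change 2.08 ± 0.19, adjusted p = 0.00419). CCND1, which encodes cyclin D1, was at 276 and 266 CPM in empty-vector cells and at 950.3 and 648 CPM in HER2 cells (log2 fold change 1.53 ± 0.15, adjusted p = 0.00443). SPRED1, FOSL1 and CCND1 were the 3 that passed without the term. The ERK phosphatase DUSP6 was at 263 and 676 CPM in empty-vector cells and at 941 and 1254 CPM in HER2 cells (log2 fold change 1.36 ± 0.24, adjusted p = 0.015), and it missed the threshold without the term (adjusted p = 0.15). In DUSP6 the groups did not overlap, but the reagents also differed within empty-vector cells. JUNB, another AP-1 factor, was lower, at 144 and 119 CPM in empty-vector cells and at 25.5 and 39.8 CPM in HER2 cells (log2 fold change -2.04 ± 0.24, adjusted p = 0.00662). Also lower were the phosphatase DUSP7 (log2 fold change -1.47 ± 0.13, adjusted p = 0.00399) and the factors EGR1 (-1.07 ± 0.20, adjusted p = 0.0183) and FOS (-0.54 ± 0.13, adjusted p = 0.0298). In EGR1 the groups overlapped. With control siRNA the log2 fold change of CCND1 was -0.07 ± 0.18, and the unadjusted p of the difference was 0.00101.

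The cell cycle set the lines apart in the opposite direction from the epithelial genes. Of 30 mitosis genes tested, 29 were higher in HER2 cells and 0 lower, and 15 passed without the term. Both HER2 libraries lay above both empty-vector libraries in all 30, which was so for 23.3% of all genes tested (the reverse order held for 28%). Their median log2 fold change was 2.32, with 2.89 for siRNA 1 and 1.75 for siRNA 3. Of 32 DNA replication genes 24 were higher and 0 lower, 9 without the term, with a median of 1.76. The medians by reagent were 2.32 and 0.96. The HER2 difference was thus larger with siRNA 1 in both lists.

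MKI67, the proliferation marker Ki-67, was at 34.2 and 13.7 CPM in empty-vector cells and at 318 and 96.2 CPM in HER2 cells (log2 fold change 3.01 ± 0.14, adjusted p = 0.000808). Topoisomerase TOP2A, which untangles chromosomes, was at 88.1 and 59.3 CPM in empty-vector cells and at 887 and 292 CPM in HER2 cells (log2 fold change 2.82 ± 0.27, adjusted p = 0.00435). The mitotic kinesin KIF20A was at 43 and 28.2 CPM in empty-vector cells and at 348 and 129 CPM in HER2 cells (log2 fold change 2.61 ± 0.22, adjusted p = 0.00336). In each the HER2 library with siRNA 3 lay between the empty-vector level and that with siRNA 1. CCNB1, the cyclin that activates CDK1, was at 39.7 and 50.5 CPM in empty-vector cells and at 273 and 116 CPM in HER2 cells (log2 fold change 1.99 ± 0.39, adjusted p = 0.0193). BUB1B, a kinase of the spindle checkpoint, was at 20.9 and 15.4 CPM in empty-vector cells and at 172 and 65.3 CPM in HER2 cells (log2 fold change 2.56 ± 0.25, adjusted p = 0.00445). FOXM1, the factor that drives mitotic genes, was at 8.98 and 7.24 CPM in empty-vector cells and at 57.9 and 18.3 CPM in HER2 cells (log2 fold change 2.01 ± 0.34, adjusted p = 0.0137). FOXM1 and MKI67 did not pass without the term, at adjusted p = 0.0688 for FOXM1 and 0.0595 for MKI67.

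Among replication genes, the E-type cyclin CCNE2 was at 6.27 and 7.77 CPM in empty-vector cells and at 98.5 and 43.5 CPM in HER2 cells (log2 fold change 3.22 ± 0.38, adjusted p = 0.00662). CDC6, which loads the replicative helicase, was at 11.2 and 14.9 CPM in empty-vector cells and at 127 and 55.4 CPM in HER2 cells (log2 fold change 2.69 ± 0.40, adjusted p = 0.0109). MCM10, an initiation factor, was at 8.87 and 5.69 CPM in empty-vector cells and at 112 and 34 CPM in HER2 cells (log2 fold change 3.12 ± 0.29, adjusted p = 0.00414). All 3 passed in both fits. The ribonucleotide reductase subunit RRM2 was at 37.6 and 23 CPM in empty-vector cells and at 384 and 101 CPM in HER2 cells (log2 fold change 2.75 ± 0.31, adjusted p = 0.00602). The sliding clamp PCNA was at 70.4 and 59 CPM in empty-vector cells and at 284 and 88.6 CPM in HER2 cells (log2 fold change 1.30 ± 0.34, adjusted p = 0.042), and its rise with siRNA 3 was modest. RRM2 and PCNA did not pass without the term, at adjusted p = 0.0565 for RRM2 and 0.133 for PCNA. FAM111B, DEPDC1 and ZNF367, which were named by the rule for large differences, showed the same order of libraries. DEPDC1 was at 13.7 and 9.08 CPM in empty-vector cells and at 190.5 and 53.5 CPM in HER2 cells (log2 fold change 3.18 ± 0.32, adjusted p = 0.00482).

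The promoters of 2 mitosis genes are shown because the element TTTGAA, the cell cycle genes homology region bound by the DREAM and MuvB complexes, lies near the start of many genes of G2 and mitosis. Source, window and orientation are as above, and capitals mark TTTGAA on either strand, which on the other strand reads TTCAAA.
CCNB2 (chr15:59104896-59105145, + strand): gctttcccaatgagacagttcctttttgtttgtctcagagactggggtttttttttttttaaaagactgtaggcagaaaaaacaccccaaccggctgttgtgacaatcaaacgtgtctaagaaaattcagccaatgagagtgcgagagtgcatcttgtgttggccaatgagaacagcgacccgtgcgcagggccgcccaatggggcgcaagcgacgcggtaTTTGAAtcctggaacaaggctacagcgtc
PLK1 (chr16:23678639-23678888, + strand): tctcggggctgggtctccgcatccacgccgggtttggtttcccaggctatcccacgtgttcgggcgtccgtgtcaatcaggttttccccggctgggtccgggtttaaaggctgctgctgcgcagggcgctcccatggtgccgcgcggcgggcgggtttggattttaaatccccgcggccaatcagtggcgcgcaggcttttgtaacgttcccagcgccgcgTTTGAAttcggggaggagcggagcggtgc
CCNB2 and PLK1 were also picked by name, and for each the window with the most matches was printed. In both the match ended 23 bases before the start of the gene. CCNB2, cyclin B2, was at 14.1 and 15.1 CPM in empty-vector cells and at 90.7 and 44.8 CPM in HER2 cells (log2 fold change 2.13 ± 0.28, adjusted p = 0.00836). PLK1, a kinase of mitotic entry and exit, was at 9.08 and 1.77 CPM in empty-vector cells and at 37.4 and 11.2 CPM in HER2 cells (log2 fold change 2.33 ± 0.19, adjusted p = 0.00313). PLK1 missed the threshold without the term (adjusted p = 0.18). Of the 29 mitosis genes that passed, 23 had an entry, with 29 windows, of which 13 (44.8%) held the motif, against 13.3% of all 35116 windows. Again a match shows no binding.

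The control libraries give the level from which each line started. The summed CPM of the 30 mitosis genes was 6382 and 6640 in empty-vector controls A and B and 12000 in the HER2 control. With YAP/TAZ siRNA it was 970 and 769 in empty-vector cells and 7128 and 2629 in HER2 cells. Relative to the control siRNA of the same line, the median mitosis gene changed by -2.95 and -3.32 on the log2 scale in empty-vector cells and by -0.60 and -2.13 in HER2 cells. For replication genes the medians were -2.64 and -2.46 in empty-vector cells and -0.28 and -1.65 in HER2 cells. Both lines thus had lower levels with the siRNA than without it, by less in HER2 cells. YAP1 and WWTR1 RNA remaining is given above for each library, and its part in this was not tested.

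**Figure D4:**
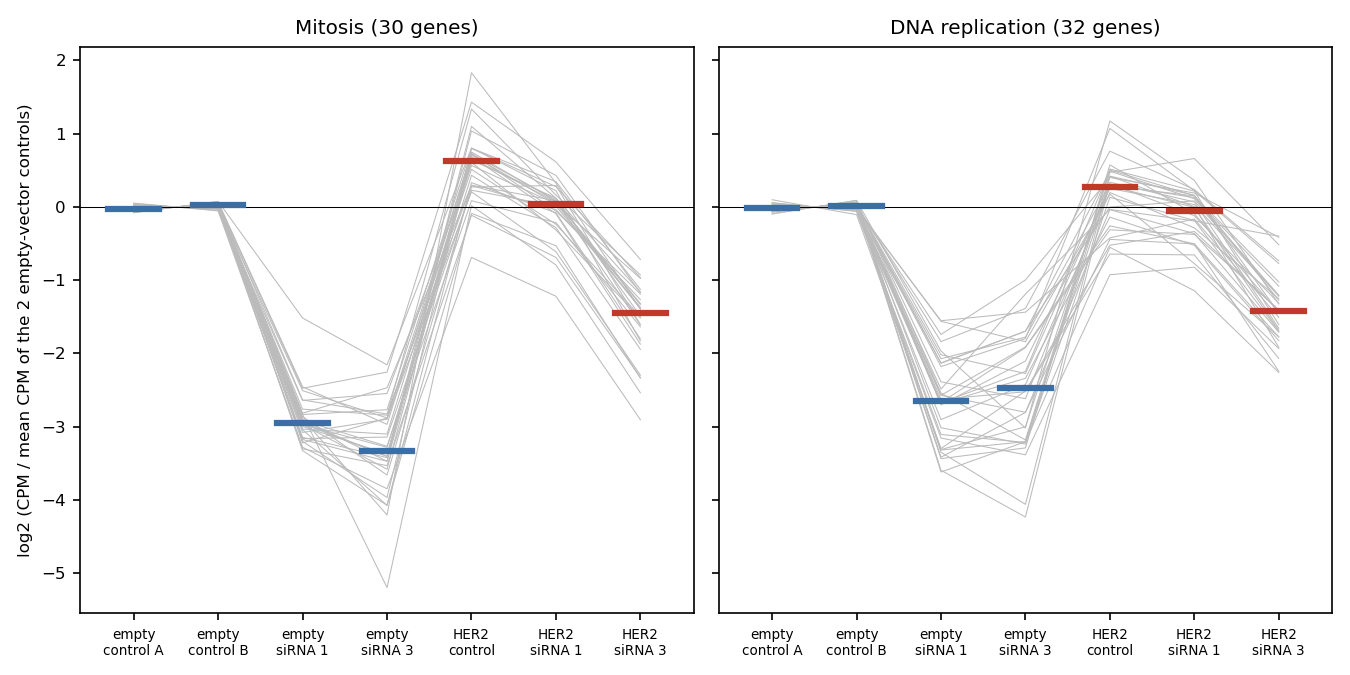
Each grey line is 1 gene of the mitosis list (left) or DNA replication list (right) across the 7 libraries on plastic, as log2 of its CPM over the mean CPM of the 2 empty-vector controls. Thick bars are medians of the list, blue for empty vector and red for HER2. Empty-vector cells with siRNA 1 or 3 are lowest, and HER2 cells with siRNA 3 lie between these and HER2 cells with siRNA 1.

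The test of this difference compares the HER2 effect with YAP/TAZ siRNA against that with control siRNA, where HER2 has 1 library. By edgeR, 0 genes (0%) passed adjustment, the smallest adjusted p being 0.232, and 2415 had an unadjusted p under 0.05. Of those, 1535 (9.52% of genes tested) had a more positive HER2 effect under YAP/TAZ siRNA and 880 (5.46%) a more negative one. DESeq2 called 616 of the 12190 genes to which it gave an adjusted p, 444 more positive (3.64%) and 172 more negative (1.41%). Without 1 of the 4 siRNA libraries edgeR called 5015 to 7238, with the spread then resting on controls A and B. Among mitosis genes 27 of 30 were more positive at the unadjusted threshold and 0 more negative, and DESeq2 called 24 of 30. Among replication genes these counts were 18 and 15 of 32. The median HER2 effect with control siRNA was 0.62 for mitosis and 0.27 for replication. For MCM10 it was 0.34 ± 0.31 with control siRNA, and the difference was 2.79 ± 0.44 (unadjusted p = 0.00135). By contrast, 0 of 29 junction genes were more positive and 6 more negative at that threshold, and the median effect on the list was -2.97 with control siRNA. Of the 5293 genes that passed under YAP/TAZ siRNA, 92.8% had the same sign of the HER2 effect with control siRNA. Over all genes tested the 2 effects correlated at r = 0.67. They share no library, but they compare the same 2 lines within 1 fit.

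**Figure D5:**
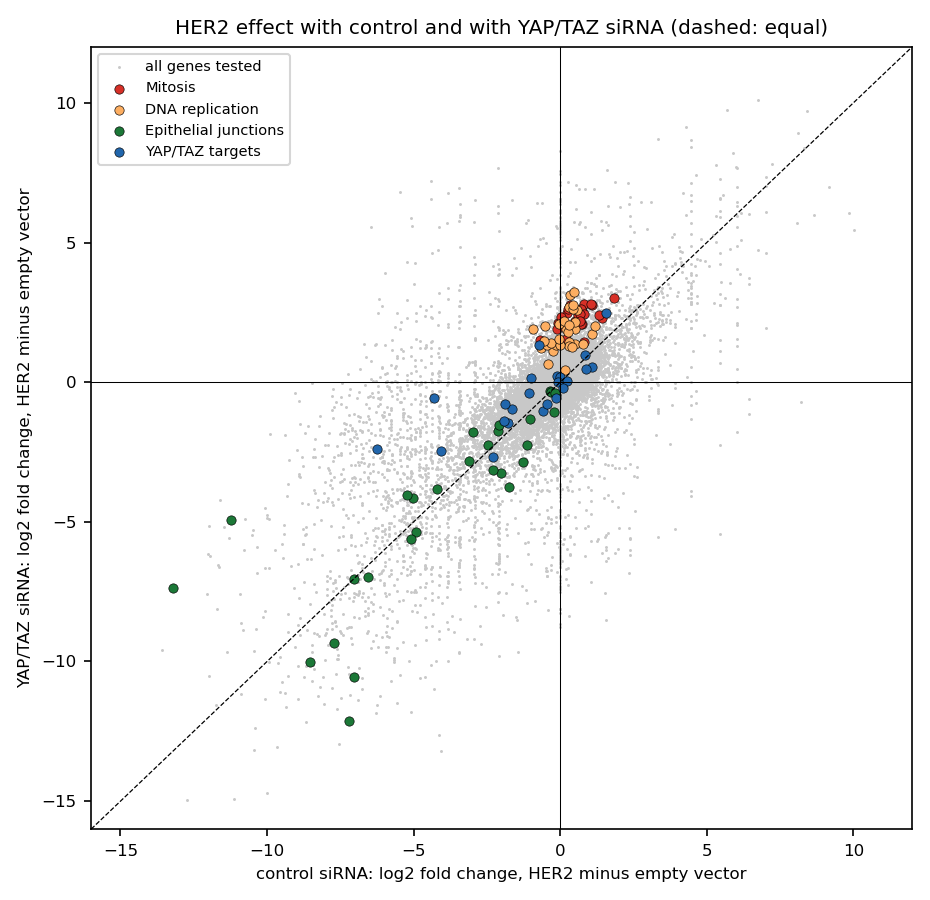
Each point is 1 gene, with the log2 fold change of HER2 over empty-vector cells with control siRNA on the x axis (1 HER2 library) and with YAP/TAZ siRNA on the y axis. Mitosis and replication genes lie above the dashed line of equality, with medians of 0.62 and 0.27 on the x axis, while junction genes lie on both sides of it in the lower left. Columns of grey points are genes with few or 0 counts in a group, whose fitted values depend on the prior count.

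Targets of p53, many of which restrain the cell cycle, were lower in HER2 cells. Of 26 tested, 16 were lower, 6 without the term and 9 without control A or B, and 0 were higher, with a median of -0.83. The list includes SFN and PERP, a desmosome gene, which are also members of the epithelial lists. CDKN1A, the cyclin-dependent kinase inhibitor p21, was at 267 and 343 CPM in empty-vector cells and at 89.8 and 132 CPM in HER2 cells (log2 fold change -1.48 ± 0.12, adjusted p = 0.00303). PHLDA3, a repressor of AKT, was at 70.6 and 65.8 CPM in empty-vector cells and at 15.8 and 12.4 CPM in HER2 cells (log2 fold change -2.28 ± 0.17, adjusted p = 0.00265). GDF15, a stress-induced cytokine, was at 18.5 and 37.6 CPM in empty-vector cells and at 4.39 and 3.24 CPM in HER2 cells (log2 fold change -2.80 ± 0.41, adjusted p = 0.0106). With control siRNA CDKN1A was at 129.9 and 117 CPM in empty-vector cells and 20 CPM in HER2 cells, so its HER2 difference was smaller under YAP/TAZ siRNA, with an unadjusted p of 0.00168. PLK2, a polo-like kinase, had a log2 fold change of -1.32 under YAP/TAZ siRNA and -3.26 ± 0.16 with control siRNA (unadjusted p of the difference 9.8e-05).

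Some genes of lipid uptake and storage were higher in HER2 cells. Of 18 tested, 8 were higher, 2 without the term, 1 was lower and 9 did not pass, with a median of 1.14. The HER2 libraries lay above both empty-vector libraries in 5 and below both in 4, near the 23.3% and 28% of all genes tested. PPARG, the nuclear receptor that drives fat storage genes, was at 12.1 and 8.3 CPM in empty-vector cells and at 189 and 77.7 CPM in HER2 cells (log2 fold change 3.6 ± 0.22, adjusted p = 0.00154). FABP4, a fatty acid carrier induced by PPARG, was at 77.8 and 0.593 CPM in empty-vector cells and at 9489 and 266 CPM in HER2 cells (log2 fold change 7.72 ± 0.54, adjusted p = 0.00211). LPL, lipoprotein lipase, was at 0.273 and 0 CPM in empty-vector cells and at 272 and 15.2 CPM in HER2 cells (log2 fold change 10.10 ± 0.32, adjusted p = 0.000504). CD36, a fatty acid receptor, was at 6.27 and 0.519 CPM in empty-vector cells and at 828 and 9.52 CPM in HER2 cells (log2 fold change 5.94 ± 0.84, adjusted p = 0.00953). PPARG and LPL passed without the term, while FABP4 and CD36 did not, at adjusted p = 0.157 for FABP4 and 0.126 for CD36. In each gene siRNA 1 gave a higher level than siRNA 3 within HER2 cells. Of 6 adipocyte markers LEP was at 0 in all 4 libraries and ADIPOQ at or under 0.151 CPM. The lipid droplet genes PLIN1 and CIDEC were detected in all 4 libraries. PLIN1, which coats the droplet, was at 1.05 and 0.0988 CPM in empty-vector cells and at 21.4 and 0.835 CPM in HER2 cells (log2 fold change 3.89 ± 0.43, adjusted p = 0.00582), where the groups overlapped. CIDEC, which promotes droplet fusion, was at 0.625 and 0.111 CPM in empty-vector cells and at 59.4 and 3.53 CPM in HER2 cells (log2 fold change 6.04 ± 0.42, adjusted p = 0.00203). LIPE, a lipase, was at 4.41 and 2.57 CPM in empty-vector cells and at 11.2 and 1.75 CPM in HER2 cells. The summed adipocyte markers were 83.8 and 3.37 CPM in empty-vector cells and 9580 and 272 CPM in HER2 cells, and FABP4 was most of the sum except in empty-vector cells with siRNA 3, where LIPE was. Their part in the lipid genes was not tested. ACSL1, an acyl-CoA synthetase, was at 503 and 165 CPM in empty-vector cells and at 1432 and 321 CPM in HER2 cells (log2 fold change 1.24 ± 0.16, adjusted p = 0.00759), and DGAT2, which makes triglyceride, was at 24.4 and 15.3 CPM in empty-vector cells and at 182 and 44.1 CPM in HER2 cells (log2 fold change 2.22 ± 0.34, adjusted p = 0.0117). DGAT1, the other enzyme of that step, was lower, at 23.9 and 25.8 CPM in empty-vector cells and at 11.7 and 12.7 CPM in HER2 cells (log2 fold change -1.02 ± 0.13, adjusted p = 0.00805). In ACSL1 the groups overlapped, as the empty-vector library with siRNA 1 lay above the HER2 library with siRNA 3. Sterol and fatty acid synthesis had 6 higher and 6 lower of 25 (1 and 2 without the term, 3 and 2 without control A or B). The desaturase FADS2 was at 59 and 61.9 CPM in empty-vector cells and at 117 and 116 CPM in HER2 cells (log2 fold change 0.94 ± 0.10, adjusted p = 0.00576), and the sterol enzyme MVD was at 36.8 and 25.3 CPM in empty-vector cells and at 13.2 and 9.91 CPM in HER2 cells (log2 fold change -1.42 ± 0.14, adjusted p = 0.00472).

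Other higher genes named by the rule are given singly, with no common theme tested. SRGN, the proteoglycan serglycin of secretory granules, was at 12.1 and 16.1 CPM in empty-vector cells and at 205 and 296 CPM in HER2 cells (log2 fold change 4.14 ± 0.13, adjusted p = 0.000504). ALOX5AP, which presents arachidonic acid for leukotriene synthesis, was at 3.05 and 10.9 CPM in empty-vector cells and at 90.9 and 473 CPM in HER2 cells (log2 fold change 5.19 ± 0.19, adjusted p = 0.000504). TLR4, the receptor for lipopolysaccharide, was at 8.79 and 3.61 CPM in empty-vector cells and at 146 and 38 CPM in HER2 cells (log2 fold change 3.73 ± 0.24, adjusted p = 0.00166). Beside these, the summed leukocyte markers were 30.1 and 8.92 CPM in empty-vector cells and 20.2 and 8.62 CPM in HER2 cells, mostly CD14, and their part was not tested. PTX3, a soluble pattern recognition protein, was at 2.28 and 0.964 CPM in empty-vector cells and at 46.8 and 11.6 CPM in HER2 cells (log2 fold change 3.99 ± 0.25, adjusted p = 0.00155). KCNQ3, a neuronal potassium channel, was at 2.95 and 1.4 CPM in empty-vector cells and at 60.6 and 32.6 CPM in HER2 cells (log2 fold change 4.45 ± 0.16, adjusted p = 0.000504). NR2F1, an orphan nuclear receptor, was at 3.2 and 3.42 CPM in empty-vector cells and at 51.8 and 17.5 CPM in HER2 cells (log2 fold change 3.18 ± 0.44, adjusted p = 0.00902). CLGN, a chaperone of the testis, was at 2.13 and 3.98 CPM in empty-vector cells and at 35.1 and 24.6 CPM in HER2 cells (log2 fold change 3.31 ± 0.39, adjusted p = 0.00662). With control siRNA the log2 fold change was 3.81 ± 0.13 for SRGN, 3.83 ± 0.19 for ALOX5AP and 4.30 ± 0.26 for TLR4.

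Interferon-stimulated genes and cytokines were mixed. Of 30 interferon response genes 10 were higher and 4 lower, with 2 and 0 without the term and 5 and 1 without control A or B. IFI44L was at 32.7 and 17.6 CPM in empty-vector cells and at 159 and 177 CPM in HER2 cells (log2 fold change 2.80 ± 0.28, adjusted p = 0.00456). STAT2, which transduces interferon signals, was lower, at 57.9 and 89.4 CPM in empty-vector cells and at 22.7 and 48.1 CPM in HER2 cells (log2 fold change -1.12 ± 0.15, adjusted p = 0.00885). Of 24 NF-kB and cytokine genes 4 were higher and 8 lower, with 1 and 1 without the term and 3 and 5 without control A or B. With the term, the share of higher NF-kB and cytokine genes was near the 15.4% of all genes tested, where 17.5% were lower. The chemokine CCL20 was at 75.4 and 19.8 CPM in empty-vector cells and at 724 and 148 CPM in HER2 cells (log2 fold change 3.09 ± 0.14, adjusted p = 0.000752). CSF3, the granulocyte growth factor, was at 11.5 and 18.1 CPM in empty-vector cells and at 76.6 and 54.8 CPM in HER2 cells (log2 fold change 2.16 ± 0.29, adjusted p = 0.00886). LIF, a cytokine of the interleukin-6 family, was lower, at 34.5 and 68.1 CPM in empty-vector cells and at 16.7 and 13.3 CPM in HER2 cells (log2 fold change -1.70 ± 0.33, adjusted p = 0.019). In CCL20 the groups did not overlap although the reagents differed widely.

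Of 26 genes of glycolysis and hypoxia 13 were higher and 1 lower, with a median of 0.61. Only 1 was higher without the term, and 7 were higher and 0 lower without control A or B. That 1 was BNIP3, a mitophagy receptor induced by hypoxia, at 26.3 and 33.5 CPM in empty-vector cells and at 81.1 and 166 CPM in HER2 cells (log2 fold change 1.97 ± 0.19, adjusted p = 0.00456). LDHA, lactate dehydrogenase, was at 1078 and 673 CPM in empty-vector cells and at 1819 and 1919 CPM in HER2 cells (log2 fold change 1.13 ± 0.20, adjusted p = 0.0153). CA9, a carbonic anhydrase induced by hypoxia, was at 0.82 and 0.0371 CPM in empty-vector cells and at 6.16 and 10.9 CPM in HER2 cells (log2 fold change 4.81 ± 1.19, adjusted p = 0.0359).

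Of 28 genes of TGF-beta and BMP signalling 9 were lower and 4 higher, with 3 and 0 without the term and 7 and 0 without control A or B. With the term, the share of higher genes was near the 15.4% of all genes tested, where 17.5% were lower. ID3, an inhibitor of differentiation induced by BMPs, was at 47.2 and 36 CPM in empty-vector cells and at 2.69 and 2.54 CPM in HER2 cells (log2 fold change -3.98 ± 0.17, adjusted p = 0.000564). FST, the activin antagonist follistatin, was at 51.5 and 15.7 CPM in empty-vector cells and at 1.66 and 2.01 CPM in HER2 cells (log2 fold change -3.96 ± 0.51, adjusted p = 0.00768). TGFBI, a matrix protein induced by TGF-beta, was at 5026 and 6807 CPM in empty-vector cells and at 396 and 2595 CPM in HER2 cells (log2 fold change -2.53 ± 0.57, adjusted p = 0.0277), and its level in HER2 cells depended on the reagent. Of 29 Notch and Wnt genes 11 were lower, 3 without the term, and 0 were higher, with a median of -1.31. The Notch ligand JAG2 was at 17.3 and 12.4 CPM in empty-vector cells and at 5.04 and 2.79 CPM in HER2 cells (log2 fold change -1.96 ± 0.18, adjusted p = 0.00384). The receptor NOTCH1 was at 95.4 and 33.6 CPM in empty-vector cells and at 23.7 and 11.9 CPM in HER2 cells (log2 fold change -1.76 ± 0.17, adjusted p = 0.00443), and HES1, a direct Notch target, was at 50.8 and 43.3 CPM in empty-vector cells and at 15.9 and 24.5 CPM in HER2 cells (log2 fold change -1.25 ± 0.24, adjusted p = 0.0186). The ligand WNT7A was at 4.2 and 5.43 CPM in empty-vector cells and at 0.0605 and 0 CPM in HER2 cells (log2 fold change -7.15 ± 0.72, adjusted p = 0.00477). In these 4 genes both HER2 libraries lay below both empty-vector libraries.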

How the data were processed

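The authors deposited 1 matrix of unnormalized counts by gene symbol. The submitters' processing notes name STAR 2.5.3a, featureCounts and edgeR and the build hg19. The strand setting, gene annotation and handling of multiply mapped reads are not given in the sources used here. Antisense and overlapping genes can therefore share reads. Of 25370 entries 25369 had a symbol, the unnamed entry had 0 counts and 0 columns belonged to other samples. A floor of 3 counts per library, which covers counting error only, corresponds to 0.0371 to 0.0586 CPM in the 4 libraries compared. Levels are CPM on TMM-scaled library totals.

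Counts were fitted with edgeR 4.0.16 in R 4.3.3: a group-wise filterByExpr (minimum count 10), TMM scaling, quasi-likelihood F tests and Benjamini-Hochberg adjustment at 0.05. All 9 libraries entered as 6 groups with 1 term for siRNA 3 against siRNA 1, leaving 2 residual degrees of freedom. Groups of 1 library are assumed to vary like the others. The submitters' labels number the same reagents in both lines, and this pairing was taken from them. As a check, the siRNA 3 minus siRNA 1 differences of the lines correlated at r = 0.42 across genes. With only 2 pairs this is a judgment, so results without the term stand beside those with it. The common biological coefficient of variation was 0.209 with the term and 0.408 without.

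Named genes were, in each direction, the 12 largest log2 fold changes among genes past 0.05 in both fits, with groups that did not overlap and an average log2 CPM of 2 or more, leaving out uncharacterised loci and small RNAs. The comparison, the 23 gene lists and the marker lists were chosen with earlier results of these data known, as were the examples named from them. Symbols were read as in the matrix, with 3 aliases. Alternatives were DESeq2 1.42.0, RLE scaling, no filter on low counts, the 4 siRNA libraries alone, no siRNA term, and leaving out each library. The fits were tested on simulated data. Figures were drawn with matplotlib.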

Additional observations from a re-analysis of the deposited data

Results flagged for a closer look

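LOX, the lysyl oxidase that cross-links collagen, was marked because its HER2 effect took opposite directions with YAP/TAZ siRNA and with control siRNA in every library. With YAP/TAZ siRNA it was at 63.9 and 111 CPM in empty-vector cells and at 37.7 and 59.6 CPM in HER2 cells (log2 fold change -0.83 ± 0.12, adjusted p = 0.00962). With control siRNA it was at 19.9 and 21.7 CPM in empty-vector cells and 53.3 CPM in the 1 HER2 library (log2 fold change 1.36 ± 0.14). The difference of the effects was -2.18 ± 0.18 on the log2 scale, with an unadjusted p of 6.49e-05 and an adjusted p of 0.232 by edgeR, and DESeq2 called it.

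ERBB2 was marked because it was also high in a library that the comparisons do not use. On the hydrogel it was at 416 CPM in the HER2 library and at 73.0 CPM in the empty-vector library, against 60.5 and 57.7 CPM in empty-vector controls on plastic.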

How the results depend on the processing

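The number of genes called under YAP/TAZ siRNA, 5293, was 4965 to 6012 with DESeq2, RLE scaling or no filter on low counts. It was 942 without the siRNA term as a replicate block, 1984 in the 4 siRNA libraries alone, and between 2383 and 10539 when each library was left out. The HER2 effect with control siRNA gave 3598 calls, 166 without the paired term, 4723 by DESeq2, and 502 to 9606 when each library was left out. The difference of the effects gave 0 calls, 616 by DESeq2, and 0 to 7238 when each library was left out, with values above 0 only where an siRNA library was left out. Of the 942 genes, 912 were called in the 4 libraries alone, 936 without control A and 935 without control B, and their sign held in every alternative run.

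Signs changed in 6 genes that did not pass: YAP1 had a log2 fold change of 0.0048 without the paired term and -0.55 to 0.37 when each library was left out. EPGN had -0.38 without the term and -1.41 to 1.79, THBD had -1.64 to 2.93, and KRT8 had -0.0038 in the 4 libraries alone and -0.16 to 0.18. IGFBP3 had -1.38 to 0.14 and DCN had -1.70 to 0.80. In these 6 genes the siRNA pairs went opposite ways. The median of YAP/TAZ targets was -0.19 and that of transition genes 0.48 without the term.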

Other observations

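Of 25 listed markers of fibroblasts, adipocytes, endothelium and leukocytes 21 were tested. With the siRNA term 4 were higher in HER2 cells, namely FABP4, CIDEC, PLIN1 and PECAM1, and 3 were lower, namely FAP, COL1A1 and ITGAM, and 0 passed without the term. PECAM1, an adhesion molecule of endothelium and leukocytes, was at 5.39 and 1.48 CPM in empty-vector cells and at 36.4 and 17.9 CPM in HER2 cells (log2 fold change 3.16 ± 0.27, adjusted p = 0.00336). Of the other endothelial markers, CDH5 was at or under 0.137 CPM, VWF was between 0.061 and 0.803 CPM, KDR was at 7.85 and 1.06 CPM in empty-vector cells and at 1.38 and 2.44 CPM in HER2 cells, and TEK was between 0.976 and 1.87 CPM. FAP, a protease of activated fibroblasts, was at 139.8 and 378 CPM in empty-vector cells and at 8.91 and 109.9 CPM in HER2 cells (log2 fold change -2.86 ± 0.55, adjusted p = 0.0189), and COL1A1, a collagen I chain, was at 11.9 and 15.8 CPM in empty-vector cells and at 0.439 and 4.43 CPM in HER2 cells (log2 fold change -3.16 ± 0.75, adjusted p = 0.0318). ITGAM, a leukocyte integrin chain, was at 4.71 and 0.222 CPM in empty-vector cells and at 0.182 and 0 CPM in HER2 cells (log2 fold change -4.85 ± 0.76, adjusted p = 0.012). DCN, the proteoglycan decorin, did not pass (adjusted p = 0.604) and was at 90.4 and 9.71 CPM in empty-vector cells and at 27.9 and 17.3 CPM in HER2 cells, against 2.77 and 2.78 CPM in empty-vector controls and 3.41 CPM in the HER2 control.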
